A study of Mus musculus with 2 samples.

Results

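The genes described here make cholesterol and long-chain fatty acids and control that synthesis. They are 35 genes, chosen by name from pathway knowledge but with earlier results of these data known. All 35 were found among the 54532 genes of the deposited table. They form 4 groups: 7 genes of the mevalonate pathway, 11 of the later sterol pathway, 11 of fatty acid synthesis and desaturation, and 6 that control or move sterols. The cells were CT26, a mouse colon carcinoma line, infected with lentivirus that drives mouse Oct4 together with human SOX2, or with the same kind of virus holding no insert, the empty vector. Both cultures were grown for 4 days in RPMI medium with fetal bovine serum, a source of cholesterol and fatty acids, and were taken up with trypsin before total RNA was extracted. The series' title calls the Oct4 and SOX2 culture de-differentiated, and the comparison asks how its transcript levels compare with those of the empty vector culture. Each group was 1 library, so the factors, the culture and the library cannot be told apart, and no test across samples was possible.

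Cholesterol is built from acetyl-CoA. The mevalonate pathway joins acetyl-CoA units and turns them into isoprenoid diphosphates, the later enzymes join these into squalene, close its rings to lanosterol and trim lanosterol to cholesterol, and a separate set of enzymes makes, elongates and desaturates fatty acids. Transcription of most of these genes is driven by the sterol regulatory element-binding proteins SREBP-1 (from Srebf1), linked mainly to fatty acid genes, and SREBP-2 (from Srebf2), linked mainly to sterol genes. Both are made as membrane-bound precursors that the escort protein Scap carries to the Golgi for cleavage, while the Insig proteins hold Scap back in the endoplasmic reticulum when sterols are plentiful.

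Oct4 and SOX2 are called both factors below. The libraries held 32262408 gene-assigned reads with the empty vector and 31521115 with Oct4 and SOX2, and values below are FPKM, fragments per kilobase of gene length at a common depth. Pou5f1, the gene for Oct4, had 0 reads with the empty vector and 12406 with Oct4 and SOX2, and mouse Sox2 had 929 and 1525, where reads of the human SOX2 vector could be included. Of 8 markers of colon epithelium, the keratin genes Krt18 (15.2 and 11.3 FPKM) and Krt20 (14.9 and 28.3 FPKM) passed 1 FPKM, while the defining adhesion genes Epcam and Cdh1 had at most 2 reads in either library. The 6 adipocyte markers summed to 0.207 FPKM with the empty vector and 0.241 with Oct4 and SOX2, and the 6 hepatocyte markers to 0.494 and 0.423, with Adipoq, Lep, Retn, Alb, Ttr and Serpina1a at 0 reads in both. The 6 leukocyte markers summed to 5.54 and 4.29 FPKM, nearly all of it Cd68, with Cd3e and Adgre1 at 0. In bulk RNA, fewer cells of a kind and less RNA per cell cannot be told apart.

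Most genes of the pathway were slightly higher in the Oct4 and SOX2 library, with a median log2 ratio of 0.30 over the sterol enzymes and 0.12 over the fatty acid genes, and the sterol sensor gene Insig1 was the largest exception. A log2 ratio of FPKM + 1 was taken for the 12401 genes that reached 1 FPKM in either library, called tested genes here, which include 33 of the 35 and leave out Fdps and Tm7sf2. Of these 33, 29 lay above 0 and 4 below it, against 48.3% of all tested genes above 0. The median was 0.21, against -0.01 over all tested genes. A log2 ratio of 0.32, or 5 to 4, was used as a first size. At least 0.32 higher were 14 of 33, or 42.4%, against 16.1% of tested genes, and at least 0.32 lower was 1, Insig1, against 16.9%. On the same scale of FPKM + 1, which understates the ratios of low genes, at least 1.5-fold higher were 5, Acat2, Mvk, Nsdhl, Hsd17b7 and Srebf1, or 15.2% against 6.58%, and 1 was 1.5-fold lower, against 6.34%. None was 2-fold different either way on it, a size reached by 2.42% of tested genes upward and 1.85% downward. The protein-coding genes alone gave nearly the same share above 0, 48.4%, but smaller shares past each size. At least 0.32 higher were 13.8% and lower 14.6%. At least 1.5-fold higher and lower were 4.71% and 4.48%, and 2-fold 1.39% and 1.07%.

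Ratios of single genes are FPKM divided by FPKM, each with an exact 95% interval for counting error computed from the recovered reads, which covers counting error only and not the variation between cultures. By that measure 25 of the 33 had an interval above 1, against 32.1% of tested genes, and 3 had one below 1, against 35.2%. The interval of the other 5, Fdft1, Sqle, Msmo1, Fads2 and Scap, included 1, as did those of Fdps and Tm7sf2. A counting interval narrows with reads, and these genes carried up to 68797 reads in a library, so an interval that leaves out 1 says that the libraries differed and not that the treatment differed from a second control.

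**Figure D1:**
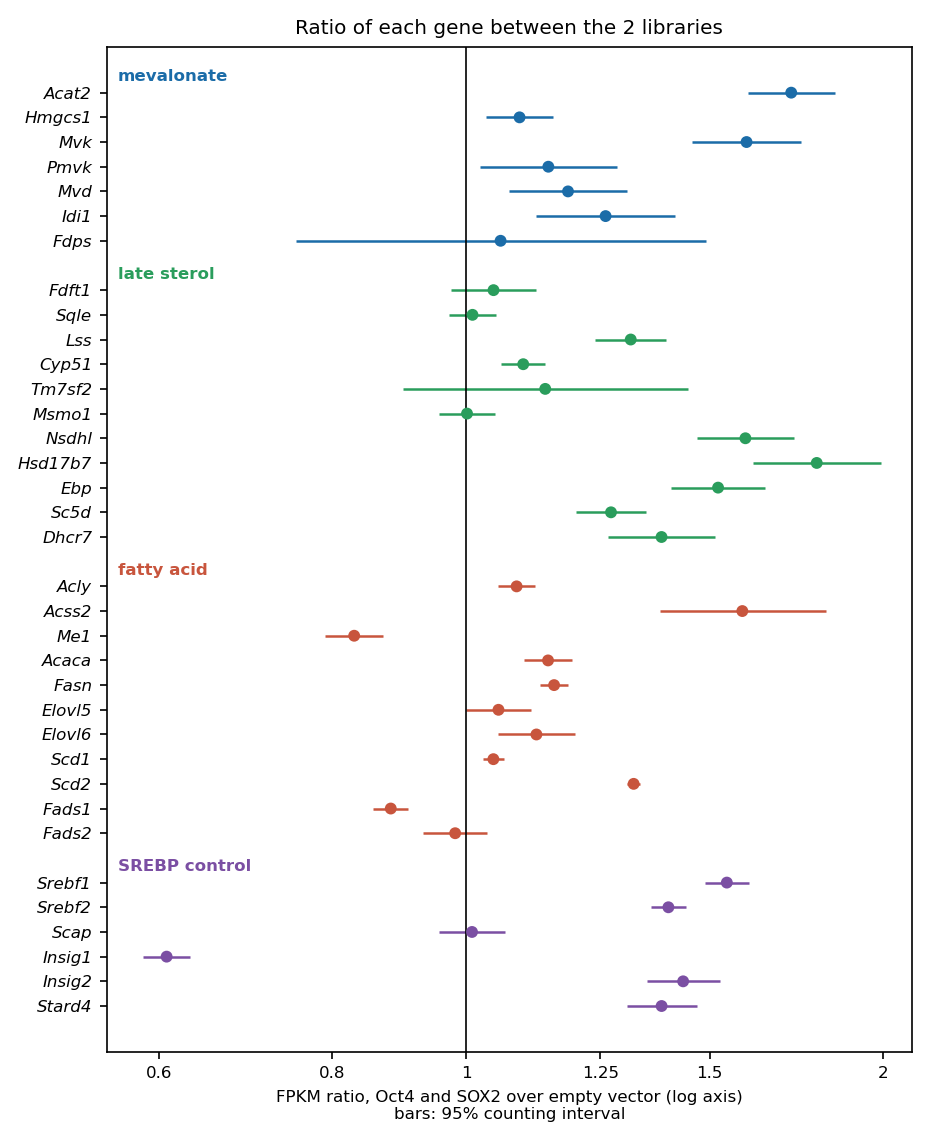
Ratio of FPKM, Oct4 and SOX2 over empty vector, for each of the 35 genes on a log axis, with bars for the 95% counting interval and colours for the 4 groups. Insig1 lies alone at 0.608, while the sterol genes run from Msmo1, at equal levels, to 1.79 for Hsd17b7.

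The promoters of 6 genes are shown because the results turn on these genes or, for Hmgcs1, because the window holds the longest of the motifs searched. Acat2, Mvk and Hsd17b7 had the highest ratios of the sterol genes, and Insig1 and Insig2 lay on opposite sides. Each is a stretch of 150 bases on the gene's own strand, from RefSeq on GRCm38.p6, that ends before the RefSeq start or, where the deposited gene begins further upstream, before that gene's first base. None of the bases shown lies in an annotated exon. The positions are chr17:12960748-12960897 on the minus strand for Acat2, chr5:114444119-114444268 on the plus strand for Mvk and chr1:169969242-169969391 on the minus strand for Hsd17b7. They are chr5:28071213-28071362 on the plus strand for Insig1, chr1:121332590-121332739 on the minus strand for Insig2 and chr13:119690201-119690350 on the plus strand for Hmgcs1. Capitals mark CCAAT, the box bound by NF-Y, a usual partner of SREBPs, CACGTG, an E-box, which SREBP-1 can also bind, and CACNCCAC, a core of the sterol regulatory element, each on either strand and with T before it included where the longer TCACNCCAC was found. Other matches in the searched windows of Acat2, Hmgcs1, Mvk, Hsd17b7 and Insig1 lie outside the stretches shown, among them those of CACNCCAC and CCAAT in Insig1.
Acat2: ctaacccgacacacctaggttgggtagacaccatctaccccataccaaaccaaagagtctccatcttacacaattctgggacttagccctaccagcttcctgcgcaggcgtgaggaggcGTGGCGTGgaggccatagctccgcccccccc
Mvk: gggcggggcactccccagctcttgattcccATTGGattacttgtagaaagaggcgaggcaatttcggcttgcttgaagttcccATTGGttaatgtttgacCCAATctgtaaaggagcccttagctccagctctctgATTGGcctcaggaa
Hsd17b7: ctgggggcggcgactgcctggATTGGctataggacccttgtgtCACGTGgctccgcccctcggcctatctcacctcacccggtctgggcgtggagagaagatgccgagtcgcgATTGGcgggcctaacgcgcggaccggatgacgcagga
Insig1: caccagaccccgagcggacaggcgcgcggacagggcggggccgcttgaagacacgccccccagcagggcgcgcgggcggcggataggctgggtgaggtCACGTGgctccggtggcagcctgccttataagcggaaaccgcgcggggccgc
Insig2: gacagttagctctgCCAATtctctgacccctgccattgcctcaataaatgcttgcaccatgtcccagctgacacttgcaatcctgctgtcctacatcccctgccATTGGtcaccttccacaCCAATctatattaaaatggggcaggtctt
Hmgcs1: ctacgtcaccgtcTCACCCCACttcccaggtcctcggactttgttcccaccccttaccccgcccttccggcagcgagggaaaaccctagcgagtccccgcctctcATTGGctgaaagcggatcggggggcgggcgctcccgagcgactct

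Promoter sequences were found for 28 of the 35 genes, and the 250 bases before each RefSeq start were searched on both strands, counting a gene once where any of its starts held the motif. CCAAT stood in 22 of the 28, or 78.6%, against 37.5% of all 27025 genes in the table and 41.5% of its tested genes. GGGCGG, the GC box bound by Sp1, stood in 23 of 28, or 82.1%, against 35.4% of all genes and 65.2% of tested genes. CACGTG stood in 6 of 28, Hsd17b7, Sc5d, Dhcr7, Elovl5, Scap and Insig1, or 21.4%, against 6.86% of all genes and 10.2% of tested genes. CACNCCAC stood in 3, Acat2, Hmgcs1 and Insig1, or 10.7%, against 6.05% of all genes and 6.32% of tested genes, and the longer TCACNCCAC, which contains it, in Hmgcs1, against 1.19% of tested genes. The octamer ATGCAAAT, which Oct4 can bind, stood in Srebf2, against 1.81% of all genes and 1.42% of tested genes. These are matches of letters in one window and no measure of binding. Genes with unlike ratios could hold the same motifs, as Mvk, at 1.59-fold, and Msmo1, at equal levels in both libraries, both held CCAAT and GGGCGG.

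In the mevalonate group the first enzyme and one kinase stood out, and the others differed little. Acat2 (ENSMUSG00000023832, chromosome 17 from 12942890 to 12960747 in GRCm38) encodes the cytosolic thiolase that joins acetyl-CoA units. It was at 14.7 FPKM with the empty vector and 25.3 FPKM with both factors, 1.72-fold higher (1.60 to 1.85), from 1195 and 2049 reads. Mvk (chromosome 5 from 114444269 to 114460591), encoding mevalonate kinase, was at 9.12 and 14.5 FPKM, 1.59-fold higher (1.46 to 1.75). Hmgcs1, encoding the HMG-CoA synthase that acts next after Acat2, stood at 16.2 and 17.7 FPKM, a ratio of 1.09 (1.03 to 1.16). The consecutive enzymes after Mvk, phosphomevalonate kinase from Pmvk and the decarboxylase from Mvd, had ratios of 1.15 (1.02 to 1.28) and 1.18 (1.07 to 1.31). Idi1, encoding the isomerase that makes the reactive isoprenoid unit, was at 4.73 and 5.96 FPKM, a ratio of 1.26 (1.12 to 1.42). The ratios of these 6 tested genes ran from 1.09 to 1.72.

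Fdps, encoding the farnesyl diphosphate synthase through which all sterol carbon passes, was the lowest of the 35 genes in both libraries. It was at 0.521 FPKM from 70 reads with the empty vector and 0.552 FPKM from 74 reads with both factors, a ratio of 1.06 (0.753 to 1.49). The enzymes on either side of it, Idi1 and Fdft1, carried 529 and 1563 reads with the empty vector. In GENCODE M21, 26.7% of Fdps exon bases lie inside exons of the same-strand model Gm43738, and 21.4% of its stretches of 100 bases occur in transcripts of another gene. The latter share was 21.9% for Idi1 and 18.3% for Fdft1. Gm43738 itself held 1 and 0 reads. How reads with several matches or on overlapping genes were counted is not given in the sources used here, and copies of Fdps outside the annotated transcripts were not searched, so their part in its low value was not tested. Acat2 has a similar limit, since 28.9% of its stretches of 100 bases occur in its neighbour Acat3, which held 22 and 48 reads.

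**Figure D2:**
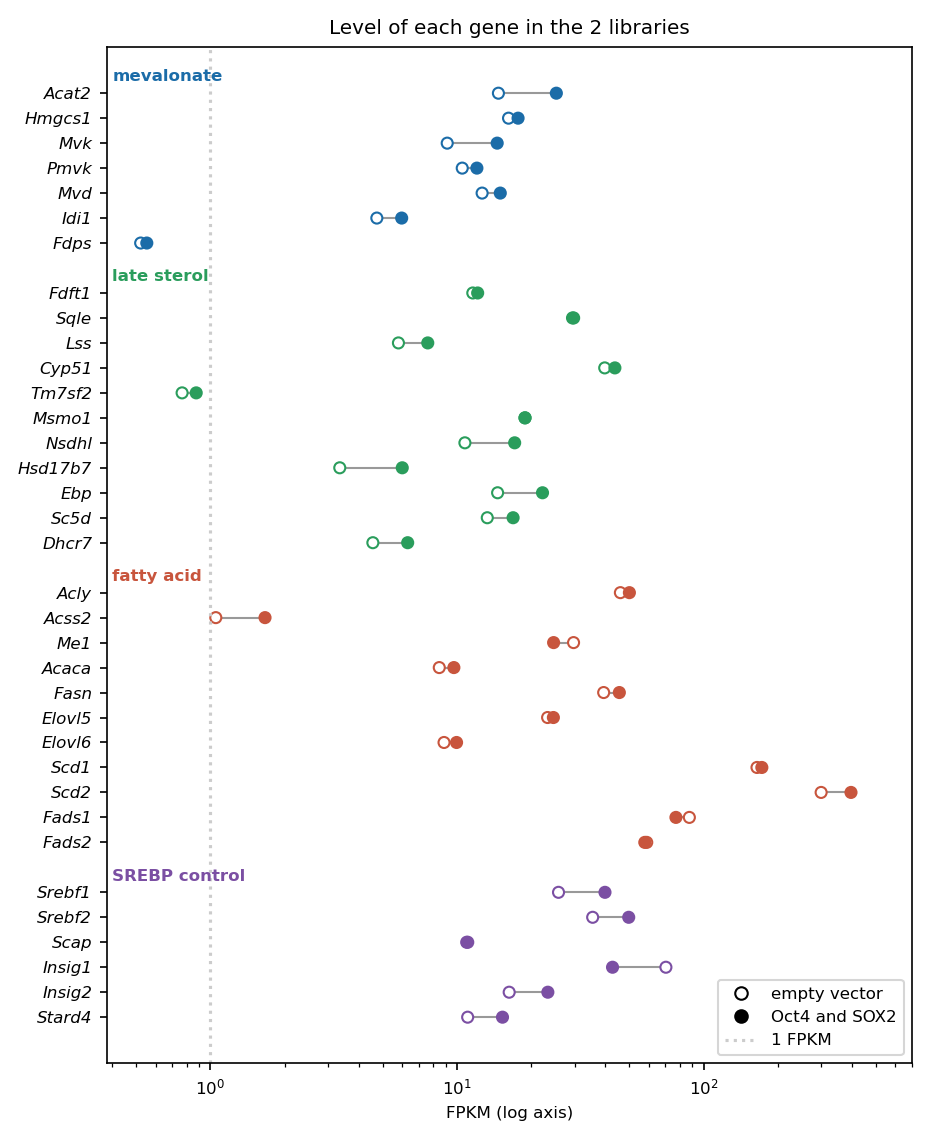
FPKM of each gene on a log axis, with open circles for the empty vector library and filled circles for the Oct4 and SOX2 library, grouped by role, and a dotted line at 1 FPKM. Scd2 and Scd1 are at the top of the range in both libraries, and Fdps and Tm7sf2 lie below 1 FPKM in both.

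The later sterol genes ran from equal levels to the highest ratio of the set. Those for squalene synthesis and oxidation and for the first demethylation steps were close to equal between the libraries. Fdft1, encoding squalene synthase, stood at 11.6 and 12.1 FPKM, a ratio of 1.05 (0.976 to 1.12). Opposite-strand exons of Ctsb, a cathepsin gene with 29045 and 21502 reads, cover 18.3% of the Fdft1 exon bases, and whether counting used the strand is not given. Sqle, for squalene epoxidase, a rate-limiting enzyme of the pathway, stood at 29.4 and 29.7 FPKM, a ratio of 1.01 (0.972 to 1.05). Cyp51, for the enzyme that removes the first methyl group of lanosterol, stood at 39.7 and 43.7 FPKM, a ratio of 1.10 (1.06 to 1.14). Msmo1, for the oxidase that starts the removal of the next methyl groups, stood at 18.85 and 18.88 FPKM from 3697 and 3696 reads, with an interval of the ratio from 0.957 to 1.05.

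The genes for enzymes that complete that removal and rearrange the ring were higher with both factors. Hsd17b7 (ENSMUSG00000026675, chromosome 1 from 169949535 to 169969241), for the keto reductase of the demethylation complex, was at 3.35 and 5.996 FPKM. That ratio of 1.79 (1.61 to 1.99), from 545 and 975 reads, was the highest of the 35 genes. Nsdhl, for the dehydrogenase of the same complex, was at 10.8 and 17.1 FPKM, 1.59-fold higher (1.47 to 1.73). Msmo1, Nsdhl and Hsd17b7 act in the same demethylation, so its genes ran from no measurable difference to the highest ratio. Ebp, for the isomerase that shifts the ring double bond, was at 14.6 and 22.2 FPKM, 1.52-fold higher (1.41 to 1.64). Dhcr7, for the last reductase of one branch, was 1.38-fold higher (1.27 to 1.51) at 4.56 and 6.31 FPKM. Lss, which closes squalene epoxide to lanosterol and so acts between Sqle and Cyp51, was 1.32-fold higher (1.24 to 1.39). The ratios thus did not simply follow the order of the steps. Sc5d, a sterol desaturase gene, was 1.27-fold higher (1.201 to 1.35). Tm7sf2, a sterol reductase gene, was low at 0.767 and 0.875 FPKM, a ratio of 1.14 (0.901 to 1.45), and Lbr, whose product has the same reductase activity, stood at 26.3 and 31.1 FPKM.

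Across the 16 tested mevalonate and late sterol genes, the more abundant ones tended to have the smaller ratios. The Spearman correlation of level with log2 FPKM ratio was -0.41 and the Pearson correlation -0.42. Over all 33 tested genes of the pathway they were -0.42 and -0.41, and over the 12276 tested genes with reads in both libraries -0.04 and -0.06. The points share the same pair of libraries, and level is taken from the same values as the ratio, so this describes the set only.

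Fatty acid genes carried most of the pathway's transcripts and had the smallest median ratio of the 4 groups. The 11 genes summed to 767 FPKM with the empty vector and 869 with both factors, or 66.2% and 65.7% of the summed FPKM of the 35 genes. Scd2 and Scd1, for desaturases that make monounsaturated fatty acids, were the most abundant of all 35. Scd2 was at 299.6 FPKM with the empty vector and 396 FPKM with both factors, 1.32-fold higher (1.31 to 1.34), while Scd1 stood at 165 and 172 FPKM, a ratio of 1.05 (1.03 to 1.06). The level of Scd2 over Scd1 was therefore 1.82 with the empty vector and 2.30 with both factors. Few of their stretches of 100 bases occur in transcripts of any other gene, 2.58% of those of Scd1 and 0.88% of those of Scd2.

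The transcripts of Acly, Acaca and Fasn, on the way from acetyl-CoA supply to palmitate, were slightly higher, with ratios from 1.09 to 1.16. Acly, for the lyase that supplies cytosolic acetyl-CoA, stood at 46.0 and 50.001 FPKM, a ratio of 1.09 (1.05 to 1.12). Acaca, for acetyl-CoA carboxylase, stood at 8.47 and 9.71 FPKM, a ratio of 1.15 (1.10 to 1.19), although 23.7% of its stretches of 100 bases occur in other genes, mainly the pseudogene Gm5182 with 671 and 843 reads. Fasn, for fatty acid synthase, was at 39.3 and 45.5 FPKM, a ratio of 1.16 (1.13 to 1.18). The elongase genes Elovl6 and Elovl5 had ratios of 1.12 (1.05 to 1.198) and 1.06, the interval of the last reaching from just above 1 to 1.11. Acss2, for the enzyme that makes acetyl-CoA from acetate, was low at 1.05 and 1.66 FPKM and had the highest ratio of the group, 1.58 (1.38 to 1.82).

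Of the genes for desaturation of polyunsaturated fatty acids, Fads1 lay the other way and Fads2 was close to equal. Me1, for one NADPH source, also lay the other way. Fads1, for the delta-5 desaturase, was at 87.5 FPKM with the empty vector and 77.2 with both factors, 1.13-fold lower (1.10 to 1.17). Its neighbour Fads2, for the delta-6 desaturase, stood at 58.8 and 57.7 FPKM, a ratio of 0.982 (0.932 to 1.04). Me1, for the cytosolic malic enzyme that supplies NADPH, was 1.205-fold lower (1.15 to 1.26), at 29.7 and 24.6 FPKM. All 3 stayed within 0.32 on the log2 scale of FPKM + 1.

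The control genes held the widest contrast of the set. Insig1 (ENSMUSG00000045294, chromosome 5 from 28071363 to 28078662) encodes the sensor that retains Scap and is itself a known SREBP target. It was at 70.3 FPKM from 6942 reads with the empty vector and 42.7 FPKM from 4210 reads with both factors, 1.65-fold lower (1.58 to 1.71). Insig2 (chromosome 1 from 121304353 to 121332589), its homologue with the same retaining role, was at 16.3 and 23.4 FPKM, 1.43-fold higher (1.35 to 1.52). The level of Insig1 over Insig2 went from 4.32 with the empty vector to 1.83, and the sum of both was 86.6 and 66.1 FPKM. No exon base of Insig1 or Insig2 overlaps another gene in GENCODE M21, and no stretch of 100 bases of either occurs in another gene's transcripts.

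Both SREBP genes were higher with both factors. Srebf1 (chromosome 11 from 60199089 to 60222581) was at 25.8 and 39.8 FPKM, 1.54-fold higher (1.49 to 1.60). Srebf2 (chromosome 15 from 82147181 to 82205379) was at 35.5 and 49.7 FPKM, 1.40-fold higher (1.36 to 1.44). The values are per gene, so the Srebf1 isoforms, which start at different promoters, are not separated, and transcript levels do not show how much of either protein was cleaved. Scap stood at 10.9 and 11.1 FPKM, a ratio of 1.01 (0.956 to 1.07). Stard4, for a soluble sterol carrier and a known SREBP target, was 1.38-fold higher (1.31 to 1.47), at 11.04 and 15.3 FPKM. Thus 4 of the 6 control genes were at least 0.32 higher on the log2 scale and 1 at least 0.32 lower on the log2 scale.

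By group, the median log2 ratio of FPKM + 1 was 0.25 for the 6 tested mevalonate genes, 0.33 for the 10 tested late sterol genes, 0.12 for the 11 fatty acid genes and 0.45 for the 6 control genes. At least 0.32 higher were 2, 6, 2 and 4 genes in that order, or 33.3%, 60.0%, 18.2% and 66.7%, against 16.1% of all tested genes. The share of the fatty acid genes was thus near that of all genes. The difference between the group medians was not tested, since there was 1 library per group. In summed FPKM the mevalonate and late sterol genes were at 221 with the empty vector and 272 with both factors, 1.23-fold higher. The fatty acid genes were at 767 and 869 FPKM, 1.13-fold higher. Most of the difference between these last sums was Scd2 alone, at 299.6 and 396 FPKM.

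**Figure D3:**
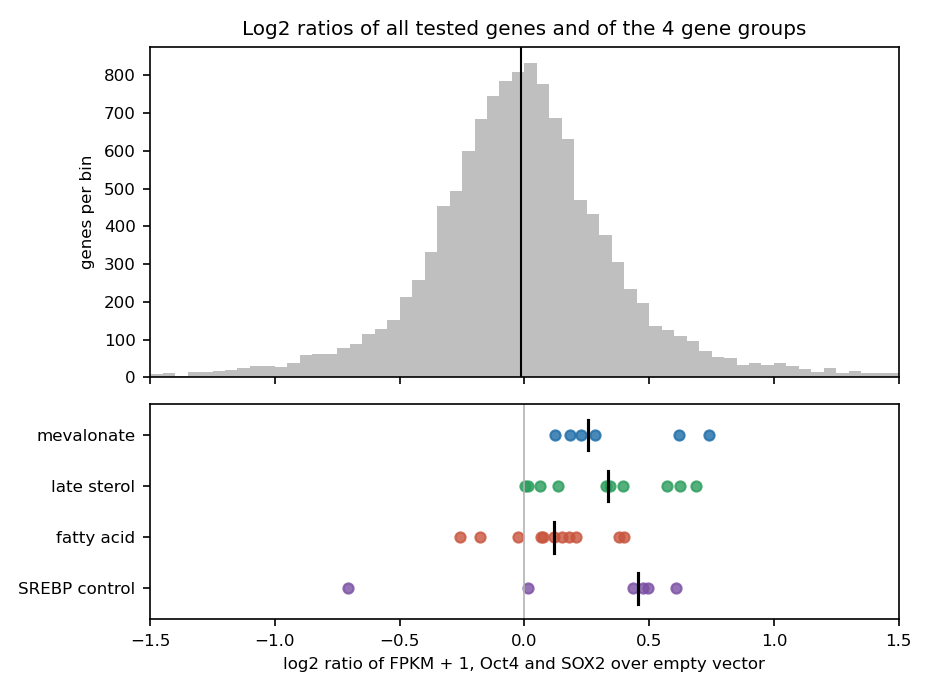
Upper panel, number of tested genes per bin of 0.05 in log2 ratio of FPKM + 1 with the median as a line, leaving out 54 genes under the lower end of the axis and 110 over its upper end; lower panel, the tested genes of the 4 groups with the group median as a bar. The group medians lie at 0.25, 0.33, 0.12 and 0.45, against -0.01 for all tested genes, and Insig1 is the point at -0.71.

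Neighbouring lipid pathways, taken from lists of 84 genes, had medians near or below 0. Of their 68 tested genes, 33 lay above 0 and 35 below, with a median of -0.02, and 7 were at least 0.32 higher on the log2 scale, or 10.3% against 16.1% of all tested genes, and 9 at least 0.32 lower, against 16.9%. The isoprenoid branch, which draws on farnesyl diphosphate for prenylation, ubiquinone and dolichol, had 6 of 11 above 0 and a median of 0.02. Its most expressed genes, the prenyltransferase subunit genes Rabggtb and Fnta, stood at 112 and 118 FPKM and at 33.7 and 44.0 FPKM. The NADPH supply list also took in other pentose phosphate genes, such as Taldo1, and another malic enzyme gene. It had 3 of 6 above 0 and a median of 0.01, with Taldo1 at 81.1 and 76.5 FPKM and G6pdx at 45.9 and 44.6 FPKM. Fatty acid oxidation genes had 7 of 14 above 0 and a median of -0.02, with the acyl-CoA dehydrogenase genes Acadl at 49.2 and 61.3 FPKM and Acadm at 37.6 and 32.4 FPKM.

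Sterol export and storage genes had the lowest median of these lists, -0.27, with 3 of 8 tested genes, or 37.5%, above 0, against 48.3% of all tested genes. Abca1, a cholesterol efflux pump gene, had the highest ratio of the list's tested genes, at 14.6 and 24.3 FPKM, 1.66-fold higher (1.60 to 1.72). It was the only 1 of the 8 at least 0.32 higher on the log2 scale, against 16.1% of all tested genes. At least 0.32 lower were 3, against 16.9%. Abcg1, another exporter gene of the list, was under 1 FPKM in both libraries. It had 23 and 4 reads, 5.74-fold lower (1.96 to 22.8). Among the other sterol genes, with 4 of 7 above 0 and a median of 0.00, Erlin1, for an endoplasmic reticulum protein that binds cholesterol, was 1.97-fold lower (1.90 to 2.03), from 71.1 to 36.2 FPKM.

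Other fatty acid and lipid assembly genes had 10 of 22 above 0 and a median of -0.05, with members far to both sides. Scd3, another desaturase gene of the Scd cluster on chromosome 19, was at 1.82 and 4.65 FPKM, 2.55-fold higher (2.16 to 3.01), and Acsl4, which activates polyunsaturated fatty acids, was 1.61-fold higher (1.56 to 1.66) at 37.0 and 59.5 FPKM. Dgat2, which makes triglyceride, was 2.45-fold lower (2.15 to 2.79), from 8.32 to 3.40 FPKM. Gpam, which starts glycerolipid synthesis, was 1.89-fold lower (1.76 to 2.02), and Fads3, next to Fads1 and Fads2, was 1.72-fold lower (1.63 to 1.81). In the Fads cluster the ratios were therefore 0.882 for Fads1, 0.982 for Fads2 and 0.583 for Fads3. Those of the Scd cluster were 1.05 for Scd1, 1.32 for Scd2 and 2.55 for Scd3. Scd4, also in that cluster but under 1 FPKM in both libraries, had 46 and 59 reads, a ratio of 1.28 (0.859 to 1.93).

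**Figure D4:**
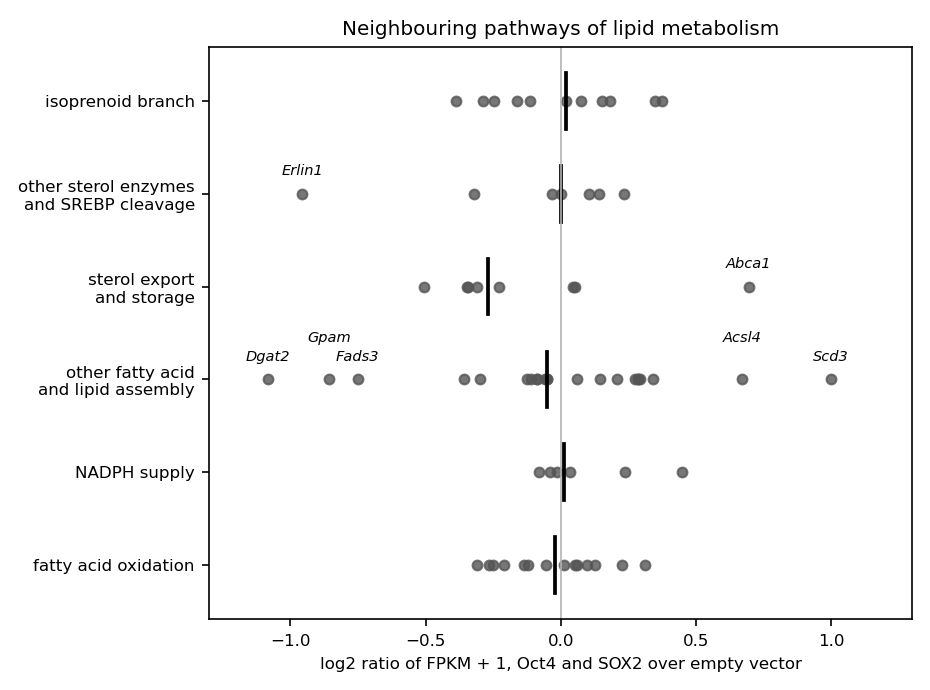
Log2 ratio of FPKM + 1, Oct4 and SOX2 over empty vector, for the tested genes of 6 neighbouring lists of lipid metabolism, 1 point per gene, with bars for list medians and names for genes at least 1.5-fold different on that scale. The list medians run from -0.27 for sterol export and storage to 0.02 for the isoprenoid branch.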

How the data were processed

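The authors deposited 1 table of FPKM values with gene lengths and positions for both libraries, per the file headers. CASAVA, HISAT2, featureCounts 1.5.0-p3 and the build GRCm38 are named per the submitters' processing notes. The read length, the strand setting, the annotation release and the rule for reads with several matches are not known here. Gene length in the table was all annotated exon bases, and equalled that of GENCODE M21 for 30 of the 35 genes, so levels compared between genes depend on annotated isoforms.

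Reads were recovered from FPKM times length, which was a whole number of steps of 1 size in each library, within 0.001 of a read, for 100% of values. The library totals implied by FPKM were 0.989 and 1.01 times the recovered sums. Ratios used log2(FPKM + 1), which understates differences of low genes, over genes with at least 1 FPKM in a library. Intervals are exact conditional binomial (Clopper-Pearson, 95%). PCR copies are not independent, so intervals and the 3-read floor cover counting error only. Interval and ratio steps were tested on simulated data.

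The 35 genes and all lists were chosen with earlier results of these data known. Named beyond them are Pou5f1, Sox2, the markers, and from each neighbouring list up to 3 genes each way at least 1.5-fold different on FPKM + 1 or else the 2 most expressed. Overlapping and near-copy genes, Lbr, Abcg1 and Scd4 were named after their values were seen. Single values of some listed genes are not reported here. GENCODE M21 gave exon overlap, shared stretches of 100 bases and GC content, and RefSeq gave promoters. The alternatives tried were a pseudocount of 0.1 or 5 FPKM, no filter, a 5 FPKM filter, 3 other scalings, protein-coding genes only, and GC centring. Software was scipy 1.17.1 and numpy 2.4.6 for intervals, pandas 2.3.3 for tables and matplotlib 3.10.9 for plots, under Python 3.11.15.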

Additional observations from a re-analysis of the deposited data

How the results depend on the processing

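With a pseudocount of 5 FPKM the control genes' median was 0.38, against 0.45, and with that pseudocount 10 genes of the pathway were at least 0.32 higher on the log2 scale, against 14, while the share of all tested genes went from 16.1% to 7.88%. Under the 9 alternatives run, between 28 and 31 of the pathway's tested genes lay above 0 and 3 or 4 below, their median ran from 0.14 to 0.24, and Insig1 alone was at least 0.32 lower. GC centring, chosen after the data had been seen, gave a median of 0.20 with 14 genes at least 0.32 higher on the log2 scale. The scalings moved the median of all tested genes to between 0.00 and 0.02. Of the 33 tested genes, Fads2 alone changed sign, to 0.01 when rescaled without the 50 highest genes and to 0.00 with plain read totals. Medians near 0 in neighbouring lists also changed sign: fatty acid oxidation to 0.01 with GC centring, when rescaled without the 50 highest genes and with plain read totals, lipid assembly to 0.04 with no filter, and the other sterol genes to -0.02 with no filter and to -0.0015 with GC centring. Few reads, 70 and 74 for Fdps and 137 and 156 for Tm7sf2, limit the ratios of both genes. No paired analysis was possible because each group had 1 library.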
